A study of Homo sapiens with 8 samples.

Results

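The genes encoding heterogeneous nuclear ribonucleoproteins (hnRNPs) and serine/arginine-rich (SR) proteins were followed in human colorectal cancer cells whose CYP1B1 level had been raised or lowered. CYP1B1 is a cytochrome P450 enzyme that oxidises xenobiotics and steroid hormones. Members were all symbols in the table of raw counts that start with HNRNP, or that consist of SRSF and a number. Antisense and pseudogene symbols were not taken. The rule used no measured value, but it was chosen with earlier results of these data known. The rule gave 32 of the 16829 genes listed, 21 hnRNP genes and 11 SR genes. Of these, 31 had enough counts to be tested, as did 14157 genes in all. HNRNPH2 did not. It had 2 and 2 counts in RKO overexpression libraries and 9 and 0 in RKO controls. In SW480 it had 0 and 2 counts in shCYP1B1 libraries and 0 and 0 in shNT libraries. HNRNPH2 shares 4003 bases on the same strand with the joined gene RPL36A-HNRNPH2. RPL36A, the other gene of that pair, had between 1 and 30 counts in every library. How reads were divided among these genes was not tested, so the low counts do not show that HNRNPH2 is silent.

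The cells were RKO with CYP1B1 overexpression, RKO control, SW480 with a short hairpin against CYP1B1 (shCYP1B1) and SW480 with a non-targeting hairpin (shNT), with 2 libraries in each of the 4 groups. Both lines come from human colorectal carcinomas, all cells were treated with lentivirus according to the labels' protocols, and the title asks how raising or lowering CYP1B1 changes gene expression in proliferating cells. A single hairpin is named and no clones are named, so effects of the hairpin on other transcripts cannot be told apart from those of CYP1B1. Nothing in the labels states that the libraries of a group were grown separately, and a p-value here sets a difference against the spread between libraries, which may be technical.

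Splicing joins the exons of a nuclear transcript, and hnRNP and SR proteins bind the transcript and help to choose which exons are kept. SR proteins carry a domain rich in arginine and serine that kinases phosphorylate, and they mostly promote the use of nearby splice sites, while hnRNP proteins often repress them and also act in export, stability and translation of mRNA. Many genes of both families limit their own level by splicing a poison exon or intron into their transcripts, which are then removed by nonsense-mediated decay. Altered levels of SR and hnRNP proteins are well known in colorectal tumours.

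CYP1B1 had 437 and 519 CPM (counts scaled to the library total with TMM factors) in the overexpression libraries, against 0.6855 and 0.701 CPM in RKO controls, and 0.367 and 0.301 CPM in shCYP1B1 libraries, against 1.44 and 2.20 CPM in shNT libraries. The libraries held between 31550173 and 34921085 counts. Of 10 colon epithelial markers, 9 were listed, and their summed level lay between 283 and 298 CPM in RKO overexpression libraries, 250.1 and 264 CPM in RKO controls, 5691 and 5736 CPM in shCYP1B1 libraries and 5075 and 5288 CPM in shNT libraries. RKO cells thus carried few of the defining colon markers: CDX1 and LGALS4 had 0 counts in all 4 RKO libraries, and EPCAM had 1.81 and 1.85 CPM in overexpression libraries and 1.99 and 1.695 CPM in controls. The keratin gene KRT18 and the intestinal factor CDX2 were present, with 176 and 189.5 CPM and 24.2 and 25.7 CPM in overexpression libraries, and 184 and 179 CPM and 24.6 and 23.1 CPM in controls. Of the 7 colon markers tested, KRT8 passed in RKO and was higher with overexpression. In SW480 the 7 went both ways: KRT8 and KRT18, which make up most of the sum, were higher in shCYP1B1 libraries, EPCAM, KRT19, VIL1 and CDX2 were lower, and CDH1 did not pass, with a median log2 change of −0.86 and a range between −3.19 and 0.59. EPCAM had 22.5 and 23.3 CPM in the shCYP1B1 libraries and 131 and 131 CPM in the shNT libraries, and KRT8 had 2524 and 2522 CPM in the shCYP1B1 libraries and 2137 and 2069 CPM in the shNT libraries. The part of these markers in the members' change was not tested.

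The promoter windows of 5 genes are shown because these genes carry the patterns that follow: HNRNPM, SRSF1 and SRSF3 are called higher in RKO overexpression and lower in SW480 shCYP1B1 cells, SRSF4 is called higher in both, and SRSF6 lower in both. Each window holds the 250 bases before the transcription start in RefSeq on GRCh38.p14, written 5′ to 3′ on the gene's strand, and capitals mark the motifs searched.
HNRNPM, chr19:8444725-8444974, plus strand: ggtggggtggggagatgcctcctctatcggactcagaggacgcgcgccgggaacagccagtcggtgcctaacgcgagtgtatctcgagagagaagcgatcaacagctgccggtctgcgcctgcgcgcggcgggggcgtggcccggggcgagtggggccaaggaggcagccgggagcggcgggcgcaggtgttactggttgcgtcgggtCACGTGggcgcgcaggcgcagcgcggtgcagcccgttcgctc
SRSF1, chr17:58007247-58007496, minus strand: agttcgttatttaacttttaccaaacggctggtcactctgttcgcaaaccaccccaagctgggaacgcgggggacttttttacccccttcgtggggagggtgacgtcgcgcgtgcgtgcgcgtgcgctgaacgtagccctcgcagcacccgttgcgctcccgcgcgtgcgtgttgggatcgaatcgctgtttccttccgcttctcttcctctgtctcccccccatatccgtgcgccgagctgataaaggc
SRSF3, chr6:36594112-36594361, plus strand: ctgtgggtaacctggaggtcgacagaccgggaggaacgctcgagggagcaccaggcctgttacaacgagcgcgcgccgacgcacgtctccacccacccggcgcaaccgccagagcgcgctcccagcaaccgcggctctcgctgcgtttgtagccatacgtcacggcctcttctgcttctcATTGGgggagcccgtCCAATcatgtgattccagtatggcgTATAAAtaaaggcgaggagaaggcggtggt
SRSF4, chr1:29181901-29182150, minus strand: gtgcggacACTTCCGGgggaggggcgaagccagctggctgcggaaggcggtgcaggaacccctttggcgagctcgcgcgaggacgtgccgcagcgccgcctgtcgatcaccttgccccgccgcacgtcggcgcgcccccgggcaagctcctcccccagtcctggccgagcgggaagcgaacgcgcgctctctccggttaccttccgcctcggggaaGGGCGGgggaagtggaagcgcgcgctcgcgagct
SRSF6, chr20:43457646-43457895, plus strand: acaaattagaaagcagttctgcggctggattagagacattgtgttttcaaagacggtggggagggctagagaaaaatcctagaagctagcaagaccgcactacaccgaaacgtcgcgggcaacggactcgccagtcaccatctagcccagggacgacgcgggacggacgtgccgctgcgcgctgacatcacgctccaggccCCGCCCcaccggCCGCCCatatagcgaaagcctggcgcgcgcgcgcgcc
The capitals are the E box CACGTG in HNRNPM, the CCAAT box and TATAAA in SRSF3, the GC box GGGCGG and the ETS motif CCGGAAGT in SRSF4, and GC boxes in SRSF6. The ETS motif of SRSF4, the GC boxes of SRSF6 and the first of the CCAAT boxes in SRSF3 lie on the other strand and appear as reverse complements (ACTTCCGG, CCGCCC and ATTGG). The SRSF1 window holds none of the motifs searched.

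In RKO cells with raised CYP1B1, members of both families were higher more often than lower. With edgeR's quasi-likelihood test at an adjusted p under 0.05, 13 of 31 members rose (41.9%) and 2 fell (6.45%), so that 48.4% passed. Of all 14157 genes, 13.8% rose, 13.8% fell and 27.6% passed. The median log2 fold change of the members was 0.16, against 0.00 over all genes, and the range ran between −0.77 for HNRNPA1L2 and 0.66 for SRSF3. Of 11 SR genes, 6 rose and 1 fell, with a median of 0.25. The summed level of 14 markers of blood, stromal, endothelial, glial and muscle cells was 13.2 to 16.95 CPM in overexpression cells, with CD3E at 0 counts in both libraries, and 9.67 to 13.9 CPM in RKO controls, with CD3E, CD14 and S100B among those at 0, and its part in the members' change was not tested. In bulk samples, fewer cells and less RNA per cell cannot be told apart.

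SRSF3, the smallest SR protein and an adaptor for mRNA export, had 263 and 287.5 CPM in the overexpression libraries and 174 and 173 CPM in the RKO control libraries. Both overexpression libraries lay above both controls, with a log2 change of 0.66 with SE 0.07 (adjusted p = 0.000119). SRSF7, which shares the export role and carries a zinc knuckle, had 217 and 227 CPM in the overexpression libraries and 143 and 139.9 CPM in the RKO control libraries. Its groups did not overlap either, with a log2 change of 0.65 with SE 0.07 (adjusted p = 0.000121). SRSF2, known as the marker protein of nuclear speckles, had 285 and 310.5 CPM in the overexpression libraries and 194 and 188 CPM in the RKO control libraries. The overexpression libraries were again the high ones, with a log2 change of 0.64 with SE 0.07 (adjusted p = 0.000136).

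SRSF1, the founding member of the SR family and a known oncogene product, had 256 and 369.9 CPM in the overexpression libraries and 215 and 226 CPM in the RKO control libraries. The groups did not overlap, but the overexpression libraries stood further apart from each other than for any other member, 1.44-fold. Its log2 change of 0.50 with SE 0.13 (adjusted p = 0.0137) became 0.22 when overexpression replicate 2 was left out, and the call was lost without either control library (adjusted p up to 0.106, edgeR). SRSF5 rose with a log2 change of 0.31 (SE 0.07) and SRSF4 with 0.25 (SE 0.07), and both calls were also lost without either control (adjusted p up to 0.0716 and 0.102, edgeR).

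SRSF6 was the SR gene that went the other way, with 204.5 and 206 CPM in the overexpression libraries and 233.5 and 241 CPM in the RKO control libraries. Both overexpression libraries were below both controls, with a log2 change of −0.21 with SE 0.06 (adjusted p = 0.0298). This call was lost in 6 of the 8 fits that left out 1 library, all but those without an overexpression library (adjusted p up to 0.179, edgeR). SRSF8, SRSF9, SRSF10 and SRSF11 did not pass, with log2 fold changes between 0.03 and 0.19.

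Among hnRNP genes in RKO, 7 of 20 rose (35.0%) and 1 fell (5.0%), where 13.8% of all genes rose and 13.8% fell. Of the 7, 5 belong to the A/B and D group of proteins with paired RNA recognition motifs, which holds 8 of the 20. HNRNPA0, which binds AU-rich elements of mRNAs, had 154.5 and 149 CPM in the overexpression libraries and 98.0 and 105 CPM in the RKO control libraries, a log2 change of 0.58 with SE 0.07 (adjusted p = 0.0002685). HNRNPAB, a close relative of HNRNPD, had 221.5 and 276 CPM in the overexpression libraries and 170.2 and 165 CPM in the RKO control libraries, a log2 change of 0.57 with SE 0.09 (adjusted p = 0.00124). For both genes the overexpression libraries were clear of the controls, though the 2 HNRNPAB values in overexpression cells were well apart. HNRNPD, also called AUF1, which marks AU-rich mRNAs for decay, had 345 and 379 CPM in the overexpression libraries and 279 and 269 CPM in the RKO control libraries, a log2 change of 0.40 with SE 0.07 (adjusted p = 0.00184).

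HNRNPA2B1, a reader of marks on nuclear RNA, rose by a log2 change of 0.25 (SE 0.06) and HNRNPA3, its close relative, by 0.20 (SE 0.06). The call of HNRNPA2B1 was lost without control replicate 2 (adjusted p = 0.0521, edgeR), and that of HNRNPA3 in the 6 fits without a control or an SW480 library (adjusted p up to 0.160, edgeR). HNRNPA1L2, an intronless copy of HNRNPA1, fell, with 12.2 and 9.33 CPM in the overexpression libraries and 16.9 and 19.6 CPM in the RKO control libraries and a log2 change of −0.77 with SE 0.20 (adjusted p = 0.0143), and this was lost without control replicate 2 (adjusted p = 0.124, edgeR). Since its sequence is close to that of HNRNPA1, which also has 74 pseudogenes named after it, how reads were divided among these copies is uncertain. The same holds for HNRNPA3, with 16 named pseudogenes, and HNRNPC, with 9.

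Outside that group, HNRNPM, a splicing regulator known for its role in exon choice of CD44, and HNRNPUL2, a relative of the scaffold attachment factor HNRNPU, rose in RKO. HNRNPM had 340.0 and 395 CPM in the overexpression libraries and 255 and 250.1 CPM in the RKO control libraries, a log2 change of 0.54 with SE 0.08 (adjusted p = 0.000722). HNRNPUL2 rose by a log2 change of 0.26 (SE 0.07), a call lost without either control (adjusted p up to 0.0811, edgeR). Of the 3 tested F/H genes (HNRNPF, HNRNPH1 and HNRNPH3, whose proteins bind runs of G), 0 passed with edgeR, 0 at an unadjusted p under 0.05 and 0 with DESeq2. Over all genes 27.6% passed with edgeR, so 0 of 3 sets these genes little apart. The 12 hnRNP genes that did not pass lay between −0.06 for HNRNPUL1 and 0.16 for HNRNPA1.

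The number of members that rose in RKO depended on single libraries. With the RKO libraries fitted on their own, 7 rose and 1 fell. With both lines fitted, leaving out the first or the second control gave 8 and 7 that rose, and leaving out overexpression replicate 1 gave 20. The number that fell was 0 when the second control was left out, and 1 when the first control or any 1 of the SW480 libraries was. Of the 15 calls, 7 held in all 8 fits with a library left out: HNRNPA0, HNRNPAB, HNRNPD, HNRNPM, SRSF2, SRSF3 and SRSF7. Set against the control mean, 21 of 31 members were above it in overexpression replicate 1 (median log2 difference 0.12) and 28 in replicate 2 (0.22). The median fold between the 2 libraries of a group over the members was 1.09 for overexpression and 1.02 for control, beside 1.11 and 1.06 over all genes.

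**Figure D1:**
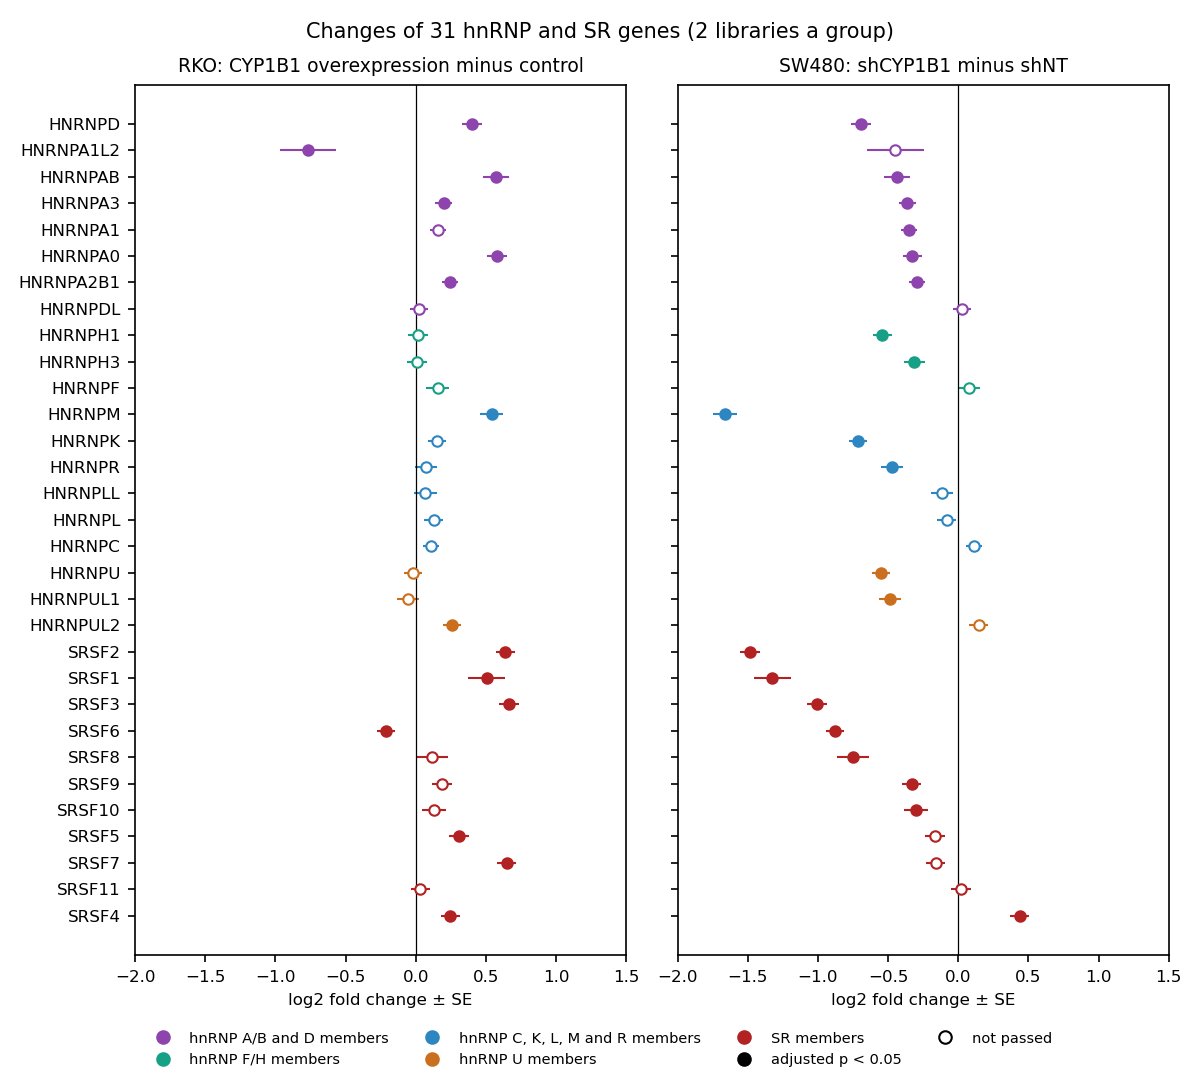
The log2 fold change with its standard error is drawn for 31 hnRNP and SR genes in RKO overexpression minus control (left) and SW480 shCYP1B1 minus shNT (right), coloured by family, with filled points at an adjusted p under 0.05. In RKO 13 filled points lie above 0 and 2 below, and in SW480 1 lies above 0 and 20 below.

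In SW480 cells with the hairpin against CYP1B1, most members were lower. Of 31 members, 20 fell (64.5%) and 1 rose (3.23%), so that 67.7% passed. Of all genes, 25.3% fell and 25.3% rose, and 50.6% passed. The median log2 fold change was −0.35 over the members and 0.00 over all genes, with a range between −1.66 for HNRNPM and 0.44 for SRSF4. By family, 6 of 8 A/B and D genes, 2 of 3 F/H genes, 3 of 6 genes of the C, K, L, M and R group, 2 of 3 U genes and 7 of 11 SR genes fell. In the same libraries, the same 14 markers of other cell types summed to 66.4 to 72.8 CPM in shCYP1B1 cells, with S100B at 0 counts in both libraries, and 39.75 to 46.6 CPM in shNT cells, with no marker at 0 in both. The part of this difference in the members' change was not tested.

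HNRNPM had 101 and 94.0 CPM in the shCYP1B1 libraries and 314 and 303 CPM in the shNT libraries. The shCYP1B1 libraries were at 0.316 times the shNT level, with a log2 change of −1.66 with SE 0.08 (adjusted p = 1.66e-07). SRSF2 had 107 and 104 CPM in the shCYP1B1 libraries and 296 and 295 CPM in the shNT libraries, and the fold was 0.357 with a log2 change of −1.48 with SE 0.07 (adjusted p = 1.19e-07). In both genes the libraries of a group were close together and the groups were far apart.

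SRSF2 shares 1510 bases with MFSD11 on the opposite strand, which fell too, with 15.9 and 17.6 CPM in shCYP1B1 and 31.3 and 31.2 CPM in shNT libraries. The use of strand in counting is not given in the sources used here, so reads over the shared stretch cannot be assigned. MFSD11 had far fewer counts than SRSF2 in every library.

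SRSF1 had 160.2 and 150.1 CPM in the shCYP1B1 libraries and 387 and 392 CPM in the shNT libraries, a fold of 0.399 and a log2 change of −1.33 with SE 0.13 (adjusted p = 1.06e-05). SRSF3 had 111 and 107 CPM in the shCYP1B1 libraries and 217 and 221 CPM in the shNT libraries, a fold of 0.497 and a log2 change of −1.01 with SE 0.07 (adjusted p = 1.01e-06). SRSF6, one of the SR proteins with 2 RNA recognition motifs, had 135 and 141 CPM in the shCYP1B1 libraries and 251 and 256 CPM in the shNT libraries, a log2 change of −0.88 with SE 0.06 (adjusted p = 1.51e-06). For all of these the shNT libraries were the high ones and no groups overlapped. SRSF8, a retrotransposed relative of SRSF2, had 46.35 and 40.9 CPM in the shCYP1B1 libraries and 73.8 and 73.0 CPM in the shNT libraries, a log2 change of −0.75 with SE 0.11 (adjusted p = 0.000203).

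Smaller falls were seen for SRSF9, with a log2 change of −0.33 (SE 0.07), and for SRSF10, known as a repressor of splicing after heat shock, with −0.30 (SE 0.09). The SRSF10 call was lost when any 1 of the 4 SW480 libraries was left out (adjusted p up to 0.137, edgeR). SRSF4 was the single member that rose, with 139 and 141 CPM in the shCYP1B1 libraries and 101 and 106 CPM in the shNT libraries and a log2 change of 0.44 with SE 0.07 (adjusted p = 0.000240). Its shCYP1B1 libraries lay above both shNT libraries, the reverse of its relative SRSF6. SRSF5, SRSF7 and SRSF11 did not pass, with log2 fold changes of −0.17, −0.16 and 0.02.

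HNRNPK, a protein that binds C-rich RNA and DNA, had 518 and 511.5 CPM in the shCYP1B1 libraries and 842 and 846 CPM in the shNT libraries. It was one of the most abundant members, its groups were clearly apart, and it had a log2 change of −0.71 with SE 0.06 (adjusted p = 5.05e-06). HNRNPD had 173.5 and 181 CPM in the shCYP1B1 libraries and 293.5 and 279 CPM in the shNT libraries, a log2 change of −0.69 with SE 0.07 (adjusted p = 1.36e-05). HNRNPU, which attaches RNA to the chromatin scaffold, had 578 and 586 CPM in the shCYP1B1 libraries and 848 and 859 CPM in the shNT libraries, a log2 change of −0.55 with SE 0.06 (adjusted p = 2.80e-05). HNRNPH1, a splicing regulator that binds runs of G, had 283.5 and 280.0 CPM in the shCYP1B1 libraries and 415.5 and 405 CPM in the shNT libraries, a log2 change of −0.54 with SE 0.07 (adjusted p = 6.94e-05). In each of these 4 genes both shCYP1B1 libraries were below both shNT libraries.

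The other hnRNP genes that fell had log2 fold changes between −0.49 for HNRNPUL1, a partner in the DNA damage response, and −0.29 for HNRNPA2B1. Between them lay HNRNPR (−0.47), a partner of the SMN protein, HNRNPAB (−0.44), HNRNPA3 (−0.36), HNRNPA1 (−0.35), a classic repressor of exon inclusion, HNRNPA0 (−0.33) and HNRNPH3 (−0.31). HNRNPA1 had 994 and 998 CPM in the shCYP1B1 libraries and 1278 and 1261 CPM in the shNT libraries, so that both shCYP1B1 libraries were below both shNT libraries (adjusted p = 0.000350, edgeR). The HNRNPH3 call was lost without shCYP1B1 replicate 1 (adjusted p = 0.0860, edgeR).

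In SW480, 7 hnRNP genes did not pass. HNRNPC, which binds U-rich tracts, HNRNPF, HNRNPDL, HNRNPUL2, HNRNPL, a binder of CA repeats, and its relative HNRNPLL had log2 fold changes between −0.12 and 0.15, and HNRNPA1L2 had −0.45 (SE 0.21). The number of members that fell in SW480 was between 18 and 23 over the 8 fits with a library left out, and 19 of the 21 calls held in all of them. The number that rose was 3, not 1, without either RKO overexpression library, with HNRNPC and HNRNPUL2 added, and 4 with the SW480 libraries fitted on their own. Against the shNT mean, 25 of 31 members were below it in shCYP1B1 replicate 1 (median −0.38) and 26 in replicate 2 (median −0.34).

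**Figure D2:**
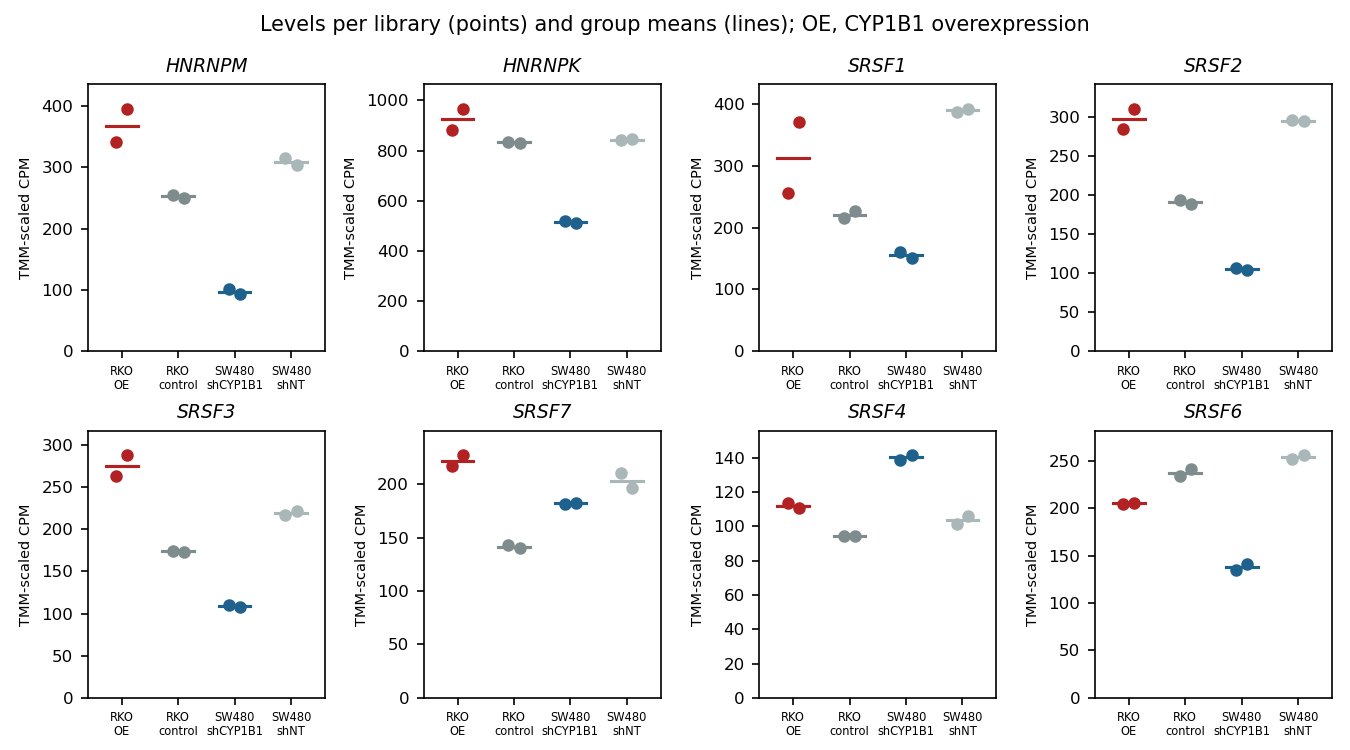
TMM-scaled CPM of HNRNPM, HNRNPK, SRSF1, SRSF2, SRSF3, SRSF7, SRSF4 and SRSF6 is drawn for every library (points), with lines at the group means, on axes that start at 0. SRSF4 is the gene whose shCYP1B1 points lie above its shNT points, and the SRSF1 points of the overexpression group stand widest apart.

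The RKO and SW480 comparisons share no libraries, and a member could be called in both. Of the 31 members, 9 (29.0%) were higher with overexpression in RKO and lower with the hairpin in SW480, a pattern that 3.45% of all genes had: HNRNPA0, HNRNPA2B1, HNRNPA3, HNRNPAB, HNRNPD, HNRNPM, SRSF1, SRSF2 and SRSF3. The opposite pattern, lower in RKO overexpression and higher in SW480 shCYP1B1 cells, was seen in 0 members and in 3.14% of all genes. It was also seen in 0 members at an unadjusted p under 0.05 in each comparison with edgeR, and in 0 with DESeq2. With so small a share over all genes, 0 of 31 sets the members little apart. SRSF4 rose in both and SRSF6 fell in both.

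A further 10 members fell in SW480 and did not pass in RKO, namely HNRNPA1, HNRNPH1, HNRNPH3, HNRNPK, HNRNPR, HNRNPU, HNRNPUL1, SRSF8, SRSF9 and SRSF10. HNRNPUL2, SRSF5 and SRSF7 rose in RKO and did not pass in SW480, HNRNPA1L2 fell in RKO and did not pass in SW480, and HNRNPC, HNRNPDL, HNRNPF, HNRNPL, HNRNPLL and SRSF11 passed in neither. With each line fitted on its own, 7 members were higher in RKO overexpression and lower in SW480 shCYP1B1 cells, 6 of them among the 9. HNRNPA2B1, HNRNPA3 and SRSF1 dropped out and SRSF7 came in. The count of 9 was chosen for description after the data had been seen. It was 15 without overexpression replicate 1 and 6 without RKO control replicate 2, and between 7 and 13 without any other library.

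**Figure D3:**
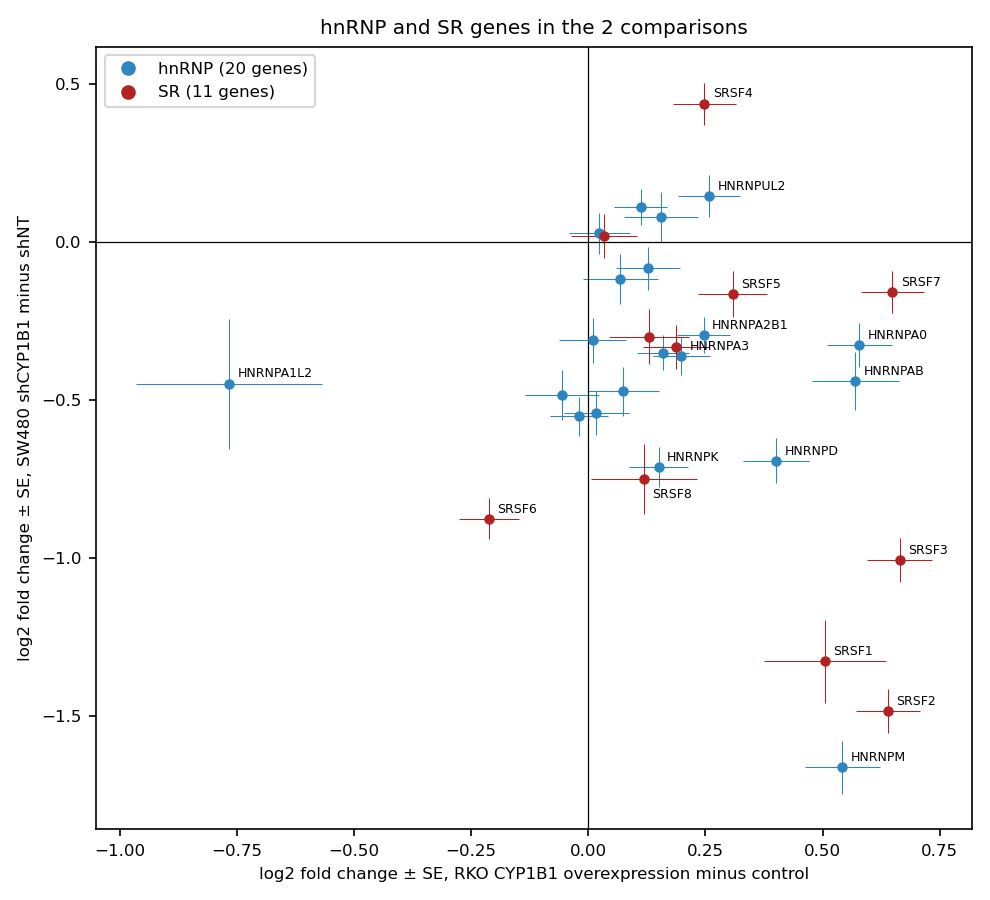
Each point is 1 of 31 genes, with its log2 fold change and standard error in RKO overexpression minus control on the x axis and in SW480 shCYP1B1 minus shNT on the y axis, in blue for hnRNP and red for SR genes. HNRNPM, SRSF1, SRSF2 and SRSF3 lie at the lower right, SRSF4 at the upper right, and SRSF6 and HNRNPA1L2 at the left below 0.

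Whether the lines differed was tested directly, as the effect of high minus low CYP1B1 in RKO (overexpression minus control) less the same effect in SW480 (shNT minus shCYP1B1). This difference passed for 18 of 31 members (58.1%), where 42.6% of all genes passed. It was below 0 for 14 members, meaning that the value of high minus low CYP1B1 was larger in SW480, and above 0 for 4, where 21.6% of all genes were below and 21.0% above. The lowest values were those of HNRNPA1L2 (−1.215, adjusted p = 0.00526), HNRNPM (−1.12, adjusted p = 2.35e-05), SRSF6 (−1.09, adjusted p = 7.92e-06), SRSF2 (−0.84, adjusted p = 5.18e-05) and SRSF1 (−0.82, adjusted p = 0.00387), with edgeR. HNRNPM, SRSF1 and SRSF2 thus had the same sign of high minus low CYP1B1 in both lines, with larger values in SW480, and SRSF6 had opposite signs. The RKO call of SRSF6 was lost in 6 of the 8 fits that left out 1 library. CYP1B1 itself was low in both SW480 groups, with 1.44 and 2.20 CPM in shNT and 0.367 and 0.301 CPM in shCYP1B1 libraries. RKO controls had 0.6855 and 0.701 CPM, so high CYP1B1 in SW480 means only the shNT level.

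The 4 members above 0 were SRSF4 (0.68, adjusted p = 0.000174), SRSF7 (0.49, adjusted p = 0.00170), HNRNPUL2 (0.40, adjusted p = 0.00481) and HNRNPC (0.22, adjusted p = 0.0450), with edgeR. HNRNPK, HNRNPU, HNRNPUL1 and HNRNPH1, which fell in SW480 and did not pass in RKO, had differences between −0.57 and −0.52 that passed. HNRNPA1, SRSF9 and SRSF10 were also called in SW480 and not in RKO, but their differences did not pass (adjusted p between 0.0749 and 0.292, edgeR). The difference for SRSF3 was −0.34 (SE 0.10).

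Of these 18 calls, 12 held in all 8 fits with a library left out. HNRNPC, HNRNPD and HNRNPH3 lost theirs in 6 fits each, HNRNPR and SRSF3 in 5 each and SRSF8 in 1. The number of members below 0 was 9 without shCYP1B1 replicate 2, and the number above 0 was 7 without overexpression replicate 1.

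Levels that can be compared between genes are those per length, the deposited FPKM, which divide counts by gene length and by library total. The 21 hnRNP genes together had 2644 and 2821 FPKM in RKO overexpression libraries, against 2438 and 2449 FPKM in RKO controls, and 1878 and 1884 FPKM in shCYP1B1 libraries, against 2495 and 2474 FPKM in shNT libraries. Overexpression libraries were thus above their controls and shCYP1B1 libraries below theirs, with ratios of the group means of 1.12 and 0.757. The 11 SR genes together had 741.7 and 767 FPKM in overexpression libraries, against 596 and 600.1 FPKM in RKO controls, and 471 and 467 FPKM in shCYP1B1 libraries, against 713 and 716 FPKM in shNT libraries. Their ratios were 1.26 and 0.656, with no overlap between groups in either line. No test was made on the sums, because an exact permutation of 2 against 2 libraries cannot give a p below 0.333.

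Scaled to the FPKM of the whole library, the hnRNP genes took 0.644% and 0.722% in overexpression libraries, against 0.640% and 0.651% in RKO controls. On this scale overexpression replicate 1 lay between the 2 controls. For the SR genes the shares were 0.181% and 0.196% in overexpression libraries, against 0.157% and 0.160% in controls. In SW480 the hnRNP shares were 0.491% and 0.492% with shCYP1B1 and 0.659% and 0.663% with shNT, and the SR shares were 0.123% and 0.122% with shCYP1B1 and 0.188% and 0.192% with shNT, so that the groups stayed apart.

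**Figure D4:**
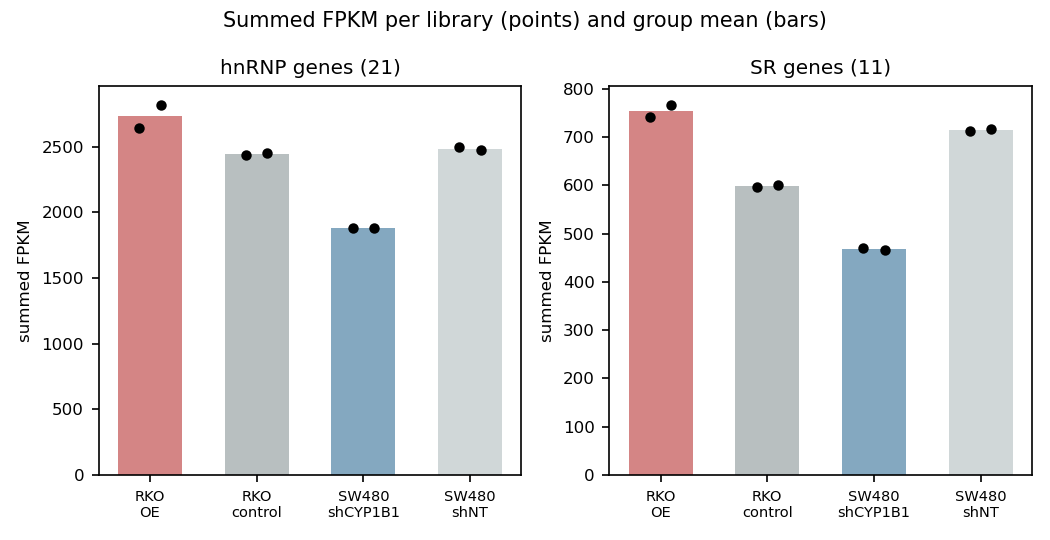
The summed FPKM of 21 hnRNP genes (left) and 11 SR genes (right) is drawn for each library as points over bars at the group mean, with axes that start at 0. The RKO overexpression points are above the control points and the SW480 shCYP1B1 points are below the shNT points in both panels.

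The order of the members by level was led by the same few genes in both lines. HNRNPA1 averaged 353 ± 4.35 FPKM in RKO controls and 338 ± 2.03 FPKM in shNT cells (SD, n = 2 each), and HNRNPA2B1 averaged 352 ± 0.212 FPKM in RKO controls and 376 ± 3.44 FPKM in shNT cells. HNRNPK followed, with 280.0 ± 1.895 FPKM in RKO controls and 275 ± 1.84 FPKM in shNT cells. Among SR genes SRSF9 led in RKO controls with 164 ± 3.72 FPKM, against 122 ± 1.08 FPKM in shNT cells, while SRSF2 had 104 ± 1.04 FPKM in RKO controls and 156 ± 0.183 FPKM in shNT cells. HNRNPA1L2 was the lowest tested member, with 8.16 ± 0.958 FPKM in RKO controls and 4.365 ± 0.855 FPKM in shNT cells.

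Between RKO control and SW480 shNT cells, 23 of 31 members passed (74.2%), close to the 76.8% of all genes, with 7 higher (22.6%) and 16 lower (51.6%) in RKO, where 35.6% of all genes were higher and 41.2% lower. Line and vector cannot be told apart here. Of 11 SR genes, 7 were lower in RKO controls. HNRNPA0 had 98.0 and 105 CPM in RKO controls and 229 and 226 CPM in shNT libraries, a log2 change of −1.16 with SE 0.07 (adjusted p = 2.63e-08). HNRNPAB (−1.03), SRSF8 (−1.01), SRSF1 (−0.82) and SRSF5 (−0.79) were also lower in RKO on the log2 scale, while HNRNPA1L2 (0.86), HNRNPDL (0.62), HNRNPF (0.54) and SRSF11 (0.52) were higher. HNRNPA1, HNRNPD, HNRNPH3, HNRNPK, HNRNPL, HNRNPU, SRSF4 and SRSF6 did not pass.

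**Figure D5:**
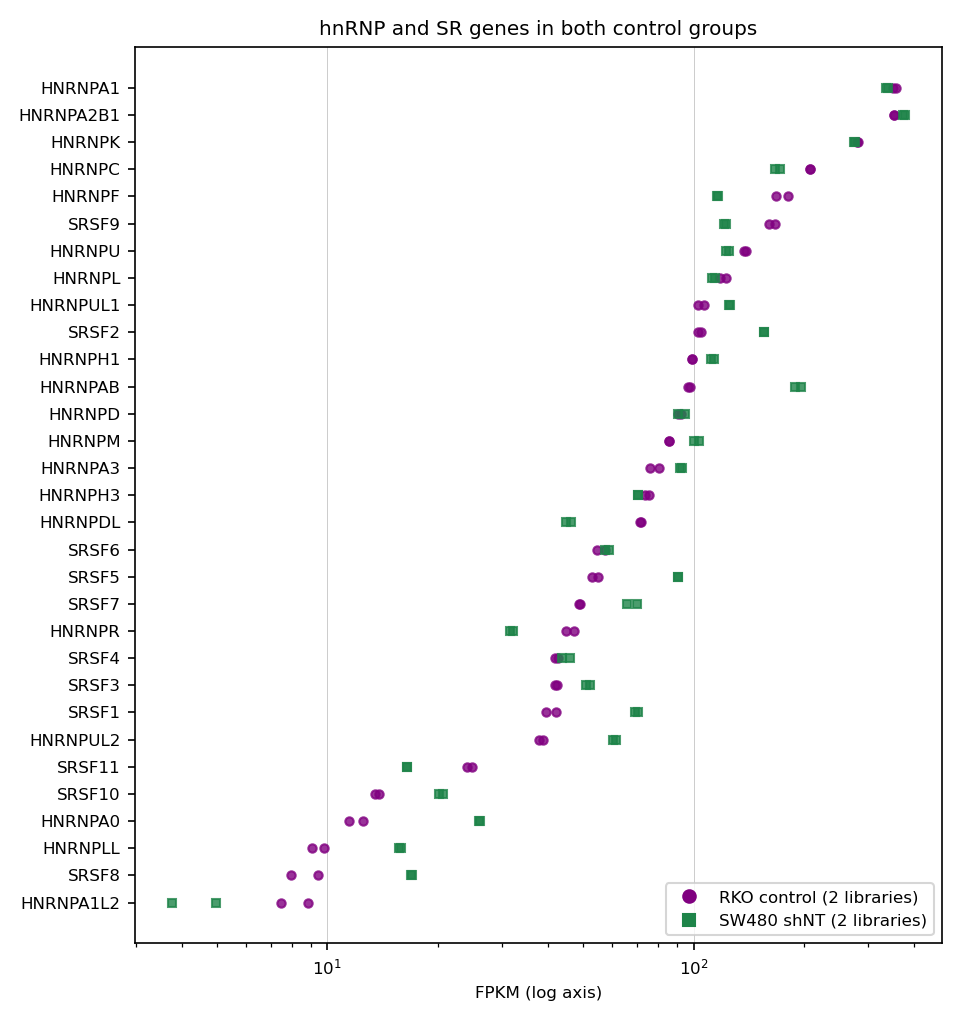
FPKM of 31 hnRNP and SR genes is drawn on a log axis for both RKO control libraries (circles) and both SW480 shNT libraries (squares), ordered by the mean in RKO controls. HNRNPA1, HNRNPA2B1 and HNRNPK are highest in both lines and HNRNPA1L2 lowest, and HNRNPA0, HNRNPAB and SRSF8 lie further right in SW480.

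The protein partners of these genes, taken from lists that were drawn up with earlier results of these data known, were called in both directions. Their counts are to be read against the shares of all genes, 13.8% higher and 13.8% lower in RKO, and 25.3% higher and 25.3% lower in SW480. Of 14 hnRNP proteins under other symbols, 3 rose (21.4%) and 2 fell (14.3%) in RKO, and 2 rose (14.3%) and 8 fell (57.1%) in SW480. PCBP1, a relative of HNRNPK, had a log2 change of 0.41 (SE 0.07) in RKO. PTBP3, a relative of the polypyrimidine tract binding protein, had −0.38 (SE 0.11) in RKO and 0.39 (SE 0.11) in SW480; the first value was −0.23 without overexpression replicate 1 and its call was lost without RKO control replicate 2 or any SW480 library, and the second without shNT replicate 1 or shCYP1B1 replicate 2.

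Of 12 kinases of SR proteins and nuclear importers, 0 were higher and 6 lower (50.0%) in RKO with edgeR. There, 0 were higher at an unadjusted p under 0.05 and 0 with DESeq2. In SW480 3 were higher (25.0%, near the share of all genes) and 6 lower (50.0%). CLK1, a kinase of SR proteins, had 37.0 and 27.3 CPM in the overexpression libraries and 52.4 and 56.3 CPM in the RKO control libraries, a log2 change of −0.76 with SE 0.13 (adjusted p = 0.00162). In SW480 its relatives moved apart, CLK3 with a log2 change of 1.29 (SE 0.11) and CLK4 with −0.97 (SE 0.22). Of 14 SR-related proteins, 3 rose (21.4%) and 4 fell (28.6%) in RKO, led by RNPS1 of the exon junction complex (0.66) and SCAF8, which binds RNA polymerase II (−0.57). In SW480, 8 fell (57.1%), with SREK1 at −0.96, and 0 rose with edgeR, with 1 higher at an unadjusted p under 0.05 and 1 with DESeq2.

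Genes of the core spliceosome were called in both directions in SW480. Of 18 proteins of small nuclear ribonucleoproteins (snRNPs), 10 rose (55.6%) and 0 fell in RKO, and 5 rose (27.8%) and 6 fell (33.3%) in SW480 with edgeR, the SW480 shares lying near those of all genes. SNRNP70, a protein of the U1 snRNP, had 218 and 251 CPM in the overexpression libraries and 130.3 and 124 CPM in the RKO control libraries, a log2 change of 0.88 with SE 0.08 (adjusted p = 6.49e-05). In SW480, SNRPA, also of the U1 snRNP, had a log2 change of 0.53 (SE 0.09) and SNRNP25, of the minor spliceosome, −1.44 (SE 0.18). Of 14 proteins of U2AF and the SF3 complexes, which recognise the 3′ splice site and branch point, 5 rose (35.7%) and 0 fell in RKO, and 3 rose (21.4%) and 6 fell (42.9%) in SW480, where U2AF2, the large subunit of U2AF, had −1.16 (SE 0.10) and SF3B2 0.61 (SE 0.06). SF3B5 led in RKO with a log2 change of 0.535 (SE 0.08). In both of these lists 0 genes were lower in RKO at an unadjusted p under 0.05 with edgeR, and 0 with DESeq2.

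Of 16 proteins of the tri-snRNP and the PRP19 complex, 7 rose (43.8%) and 2 fell (12.5%) in RKO, and 3 rose (18.8%) and 5 fell (31.2%) in SW480. PRPF4 had a log2 change of 0.61 (SE 0.14) in RKO, which became 0.31 without overexpression replicate 2 and was not called without either control, and PLRG1 had −0.54 (SE 0.08). In SW480, XAB2 had 0.79 (SE 0.11) and PRPF31 −0.77 (SE 0.07). Of 10 factors of nonsense-mediated decay, 3 fell in RKO (30.0%) and 4 in SW480 (40.0%), among them SMG9 with −0.58 (SE 0.08) in RKO and SMG6, an endonuclease of this pathway, with −0.57 (SE 0.09) in SW480. In SW480 0 of the 10 rose with edgeR, at an unadjusted p under 0.05 or with DESeq2, and in RKO 0 rose with edgeR, 2 were higher at an unadjusted p under 0.05 and 1 rose with DESeq2.

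The transcript annotation (GENCODE release 29) lists a transcript subject to nonsense-mediated decay for 24 of 32 members (75.0%). It does so for 11 of 11 SR genes and 13 of 21 hnRNP genes (61.9%), against 41.1% of the 13828 protein-coding genes tested. These shares take no account of the number of transcripts listed per gene, which was 50 for HNRNPH1 and 1 for HNRNPA0. The 32 members include HNRNPH2, which was not tested. Counts were deposited per gene, so a productive transcript and one with a poison exon cannot be told apart, and exon choice was not measured.

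Of 32 members, 30 had a promoter window in the RefSeq table. The CCAAT box (CCAAT on either strand) was found in 15 of them (50.0%), against 33.0% of all 27305 promoter windows and 34.6% of the 11109 windows of tested coding genes, in 13 of 20 hnRNP and 2 of 10 SR genes. The E box CACGTG was found in 6 (20.0%, against 6.49% of all and 8.74% of tested coding genes), all of them hnRNP genes and HNRNPM among them. The GC box GGGCGG was in 19 (63.3%, against 42.3% of all and 66.5% of tested coding genes), TATAAA in 5 (16.7%, against 11.1% of all and 5.82% of tested coding genes), CCGGAAGT in 3 (10.0%, against 3.64% and 6.65%) and TTTCCCGC in 2 (6.67%, against 1.42% and 2.18%). TGACGTCA and the NRF1 motif were in 0 of 30, against 1.77% and 1.13% of all windows. These are letter matches on both strands, no motif contains another, and they were not tested against the members' changes.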

How the data were processed

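RNA-seq was done on 8 libraries, 2 in each of 4 groups, which were read from the sample titles together with the replicate numbers. The labels' protocols name TRIzol extraction and a stranded mRNA library kit. Raw counts per gene and FPKM for the same genes were deposited by the authors. The submitters' processing notes name GRCh38.p13. For the aligner, counter, annotation and strand setting, nothing is given in the sources used here. Per gene, the deposited FPKM equal the count divided by the library total and 1 length per gene. Library totals were 31550173 to 34921085 counts.

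Genes were filtered with filterByExpr (minimum count 10, minimum total 15), scaled with TMM and tested in edgeR 4.0.16 under R 4.3.3 by the quasi-likelihood test, with 1 coefficient per group over all 8 libraries and 4 residual degrees of freedom. P-values were adjusted by Benjamini-Hochberg across the 14157 tested genes (threshold 0.05). The main edgeR fit was tested on simulated counts for the RKO and SW480 comparisons, and the other steps were not. Where a library was left out, the lone library of its group was assumed to vary like the others. The alternatives were RLE scaling, no filter on low counts, DESeq2 1.42.0, each line on its own, a replicate block, a test against a fold of 1.5, FPKM rescaled per library, and each library left out in turn.

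The members, gene lists and tests were chosen with earlier results of these data known. All members were named; of each other list, at most 2 genes each way with the largest change among those that passed were named. Some genes that this rule or the marker lists hold are not reported here, although counts and sums include them. Overlapping neighbour genes were named after their values had been seen. Genes of the reference that overlap or share a symbol stem with the members came from GENCODE release 29 on GRCh38, and promoters from RefSeq on GRCh38.p14. Promoter windows of SRSF2 and HNRNPA1 were not used here. No per-sample column was left unmapped.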

Additional observations from a re-analysis of the deposited data

Results flagged for a closer look

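The test of the difference between the lines, in edgeR, compared the effect of high minus low CYP1B1 in RKO (overexpression minus control) with that in SW480 (shNT minus shCYP1B1), and it passed for CYP1B1 and 18 members. For CYP1B1 itself the difference was 6.98 on the log2 scale, the overexpression being far larger than the knockdown.

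Among SR genes the difference was below 0 for SRSF6 (−1.09), SRSF2 (−0.84), SRSF1 (−0.82), SRSF8 (−0.63) and SRSF3 (−0.34), and above 0 for SRSF4 (0.68) and SRSF7 (0.49). SRSF6 was lower with overexpression in RKO and lower with the hairpin in SW480, and SRSF4 was higher in both. These 2 genes thus had opposite signs with CYP1B1 in the lines. However, the RKO call of SRSF6 was lost in 6 of the 8 fits that left out 1 library, and that of SRSF4 in 2.

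Among hnRNP genes the difference was below 0 for HNRNPA1L2 (−1.21), HNRNPM (−1.12), HNRNPU (−0.57), HNRNPK (−0.56), HNRNPUL1 (−0.54), HNRNPH1 (−0.52), HNRNPR (−0.40), HNRNPH3 (−0.30) and HNRNPD (−0.29), and above 0 for HNRNPUL2 (0.40) and HNRNPC (0.22). CYP1B1 changed by very different amounts in the lines, and the vectors differ too, so line, vector and size of the CYP1B1 change cannot be told apart.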

How the results depend on the processing

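RLE scaling, the missing filter and DESeq2 left each count of members within 1.5 times its value. With each line fitted on its own, 7 members rose and 1 fell in RKO (2194 genes called in all), and 4 rose in SW480. Tested against a fold of 1.5, members that rose and fell numbered 0 and 0 in RKO (89 genes in all), 0 and 5 in SW480 (1994), 0 and 3 for the difference between the lines (1961), 0 and 7 between RKO control and shNT (6851), and 0 had the pattern of 9. The correlation of same-numbered deviations over all genes was −0.00532 in RKO and −0.0115 in SW480. With 2 libraries a group, this cannot exclude that same-numbered libraries were paired. With the number as a replicate block, 12 members rose and 1 fell in RKO, and 1 rose and 20 fell in SW480.

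With each library left out in turn, members rising numbered 7 to 20 and falling 0 to 3 in RKO (1784 to 5629 genes called in all), 1 to 3 and 18 to 23 in SW480 (5076 to 8756), 3 to 7 and 9 to 17 for the difference between the lines (4576 to 7142), and 7 to 8 and 13 to 17 between RKO control and shNT (9747 to 11714). The pattern of 9 ran between 6 and 15. Ratios of summed FPKM ran between 1.08 and 1.15 (hnRNP) and 1.24 and 1.28 (SR) in RKO, and between 0.754 and 0.760 (hnRNP) and 0.6535 and 0.659 (SR) in SW480. Rescaled per library, they were 1.06, 1.19, 0.743 and 0.644 in that order.

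Signs turned with a library left out only for values that had not passed. RKO values then ran between −0.021 and 0.068 (HNRNPDL), −0.066 and 0.096 (HNRNPH1), −0.030 and 0.050 (HNRNPH3), −0.037 and 0.18 (HNRNPR), −0.086 and 0.044 (HNRNPU), −0.18 and 0.058 (HNRNPUL1), −0.012 and 0.26 (SRSF10), −0.019 and 0.087 (SRSF11), and −0.014 and 0.24 (SRSF8) on the log2 scale. The SRSF11 value in SW480 ran between −0.022 and 0.074. Differences between the lines ran between −0.039 and 0.28 (HNRNPAB), −0.034 and 0.12 (HNRNPL), −0.11 and 0.0038 (HNRNPLL), and −0.0025 and 0.12 (SRSF11). The cause was not tested for any of these. With 2 libraries a group, small changes are not resolved.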

Other observations

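On the same strand, 10 of 32 members (31.2%) overlap another annotated gene, microRNA genes included. Among coding ones, AC015813.2 shares 3887 bases with SRSF1, HNRNPUL2-BSCL2 14755 with HNRNPUL2, and AC008982.1 3791 with HNRNPL. Strand cannot separate such reads, and the effect on these members' counts was not tested. Several members share bases with a gene on the opposite strand that had its own change. Other coding neighbours on the opposite strand passed in neither comparison: PBLD and RUFY2 at HNRNPH3, COX20 at HNRNPU and GATC at SRSF9. Of all genes, 27.6% passed in RKO and 50.6% in SW480. NFE2L3, which overlaps HNRNPA2B1 over 14069 bases, had 881 and 866 CPM in shCYP1B1 libraries and 401 and 416 CPM in shNT libraries, a log2 change of 1.095 (SE 0.07). TGFB1, a growth factor gene that overlaps HNRNPUL1 over 6012 bases, had 401 and 384 CPM in shCYP1B1 libraries and 175 and 167 CPM in shNT libraries, a log2 change of 1.20 (SE 0.07). In SW480 the members HNRNPA2B1 and HNRNPUL1 were lower while these neighbours were higher. In RKO, NFE2L3 (log2 change 0.30, SE 0.07) and CBX3, which overlaps HNRNPA2B1 over 368 bases (0.38, SE 0.07), were higher with overexpression, as was HNRNPA2B1, and TGFB1 was higher (0.29, SE 0.07) while HNRNPUL1 did not pass. Also in RKO, PHYKPL, which overlaps HNRNPAB over 2667 bases, had 13.65 and 9.42 CPM in overexpression libraries and 19.8 and 21.7 CPM in RKO controls, a log2 change of −0.85 (SE 0.17), while HNRNPAB was higher.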
